A study of Homo sapiens with 4 samples.

Results

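The clustered protocadherins were taken as every row of the deposited transcript table whose gene name begins with PCDHA, PCDHB or PCDHG, the alpha, beta and gamma clusters. The rule found 50 genes with 80 transcripts, of 20298 genes and 75165 transcripts in the table. The alpha cluster gave 8 genes, the beta cluster 18 and the gamma cluster 24. RefSeq names 59 genes in the family, 53 of them protein-coding and 6 pseudogenes, and all 50 listed symbols were found there.

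RNA was measured by RIP-seq of YTHDC1, the nuclear protein that reads N6-methyladenosine (m6A) in RNA, in MDA-MB-231, a triple-negative breast cancer cell line. All 4 libraries came from cells transduced with a lentivirus for Flag-tagged YTHDC1 at an MOI of 4, kept in puromycin at 2 μg/ml for 4 days, UV-crosslinked and separated into nuclei. The IP group held 2 libraries of RNA bound to the anti-Flag antibody and the input group held 2 libraries of the nuclear lysate before precipitation. Input cells therefore carried the overexpressed tagged protein as well, and RNA bound to a normal IgG control was not analysed here. The value used throughout is the authors' mean normalized count, 1 number per transcript averaged over the 2 IP and 2 input libraries together, summed here over the transcripts of a gene. No value per library was available, so no level has a replicate error, none can be assigned to IP or to input, and the order of neighbouring genes cannot be set against a spread. The depth of each library is unknown.

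Clustered protocadherins are cadherin-type adhesion proteins of the cell surface, best known for giving each neuron a surface identity. In the alpha and gamma clusters each variable exon has its own promoter and encodes the extracellular part, and it is spliced to constant exons shared by the whole cluster, which encode a common cytoplasmic tail. Beta genes have no constant exons. A short conserved promoter element with the core letters CGCT lies upstream of most variable exons, and CTCF and cohesin link the chosen promoter to distant enhancers.

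The promoters are shown first, and their words were counted without using the levels of the genes. Which genes are listed does depend on reads, through the authors' filter given below. The RefSeq promoter table for GRCh38.p14 holds 250 bases before to 50 bases after an annotated start, and it had an entry for 40 of the 50 listed genes and 7 unlisted ones, 47 family genes in all. For 5 gamma genes with 2 annotated starts the upstream start was used. Every 8-letter word was counted on both strands, and the word held by most genes of a cluster is in capitals in the windows below, each on the plus strand, the strand of the genes.
PCDHA1, chr5:140786088-140786115: tggccacatgATGTCGCTgtacaccaca
PCDHA7, chr5:140834174-140834201: tggccacatgATGTCGCTctttaccgca
PCDHA12, chr5:140875246-140875273: cagtcacatgATGTCGCTctacactcag
PCDHB5, chr5:141135181-141135208: aggacgcctgGTGGCGCTgcaggctaag
PCDHB8, chr5:141177779-141177806: aggacccgtgGTGGCGCTgcaggataag
PCDHB13, chr5:141213867-141213894: aggacgcgtgGTGGCGCTgcaggataag
PCDHB14, chr5:141223265-141223292: gagacacatgGTGGCGCTacaggataag
PCDHGB1, chr5:141350029-141350056: acctctgggcGCCGCTGTcgaccaaaag
PCDHGA7, chr5:141382653-141382680: gactcacagcGCCGCTGTtcaccaacca
PCDHGB4, chr5:141387621-141387648: gactctgggcGCCGCTGTtggccaaagt
PCDHGC3, chr5:141475884-141475911: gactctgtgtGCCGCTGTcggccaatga
Windows are shown only for genes that hold the word of their cluster. The beta windows include PCDHB13 and PCDHB14, at the top of the cluster in level, and PCDHB5, near its bottom. PCDHB1, the lowest beta gene, did not hold the beta word and has no window.

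Over the listed members the most shared 8-letter word was GTGGCGCT, with the reverse complement AGCGCCAC, and 3 words were tied for that place. It was held by 13 of 40 promoters. All 13 were beta promoters, 13 of 14 in that cluster, and the remaining beta promoter was that of PCDHB1. Over beta promoters alone it was 1 of 2 equally shared words. No alpha promoter of 6 listed genes and no gamma promoter of 20 held it, and 1.15% of all 35116 promoters in the table did. The alpha and gamma clusters each had a word of their own. ATGTCGCT, 1 of 2 equally shared alpha words and the rarer over all promoters, stood in 9 of 13 alpha promoters, listed or not, and in 0.234% of all promoters. GCCGCTGT stood in 11 of 20 gamma promoters and in 1.63% of all promoters. Neither was found in the promoters of the other 2 clusters. These words were chosen on the members themselves, and the counts are a description without a test.

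Each of the 3 words contains CGCT. The 4 letters CGCT, read on either strand, were in 46 of the 47 family promoters and in 70.0% of all promoters, so most promoters of any kind held them. PCDHA9 was the family promoter without them. The longer stretch TGTCGCT, the alpha word without its first letter, was in 10 of 13 alpha, 1 of 14 beta and 3 of 20 gamma promoters and in 1.76% of all. The gamma promoters were those of PCDHGA3, PCDHGA4 and PCDHGA5, none of which held the gamma word.

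The words lay at similar distances from the annotated starts. The first base of the alpha word was 42 to 85 bases upstream, with a median of 52 bases. The gamma word began 42 to 97 bases upstream, with a median of 67 bases. The beta word began at most 83 bases upstream, with a median of 65 bases, and in PCDHB8 and PCDHB5 it began 1 and 15 bases before the start that RefSeq gives. Every match was read on the plus strand as written above.

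**Figure D1:**
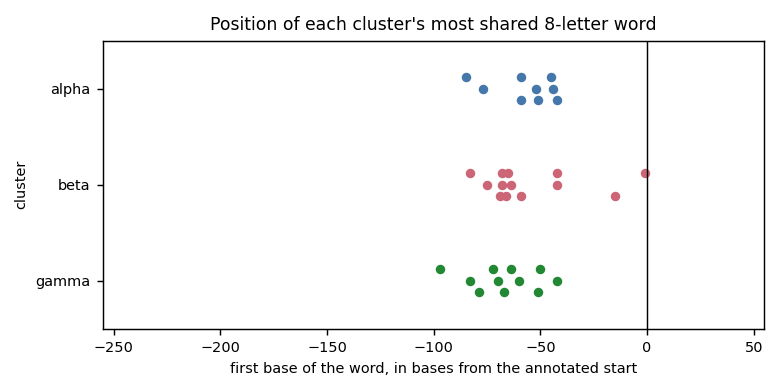
Position of the first base of each cluster's most shared 8-letter word, in bases from the annotated start (vertical line at 0), with 1 point per gene and small vertical offsets for legibility. The alpha and gamma points lie between 97 and 42 bases upstream, and PCDHB5 and PCDHB8 are the beta points nearest the start.

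The promoters of the clusters were poor in G and C beside the rest of the table. The median GC content was 37.3% in alpha, 40.8% in beta and 42.0% in gamma promoters, against 58.7% over all promoters. The C-type genes, a divergent kind of variable exon at the downstream end of the alpha and gamma clusters, stood apart, with 66.0% in PCDHAC1, 63.0% in PCDHAC2, 59.0% in PCDHGC3 and 60.7% in PCDHGC4. The median ratio of observed to expected CpG was 0.593 in alpha, 0.631 in beta and 0.527 in gamma, close to 0.579 over all promoters.

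The 3 clusters differed widely in how many reads they held. The 50 genes together had a summed mean normalized count of 19460.3, which was 0.0583% of the 33361205 over all listed genes. The gamma cluster held 71.6% of the members' sum, the beta cluster 28.1% and the alpha cluster 0.311%. The sums were 13934 for gamma, 5466 for beta and 60.5 for alpha. These are sums of reads and were not divided by length, since transcript lengths were not used here.

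All 16 protein-coding beta genes and all 22 protein-coding gamma genes were listed, whereas 7 of 15 protein-coding alpha genes were. The authors dropped transcripts that did not reach 5 reads in 50% or more of the libraries, so a gene that is not listed may have been below that limit. The alpha genes without a row were PCDHA3, PCDHA4, PCDHA5, PCDHA8, PCDHA9, PCDHA10, PCDHA11 and PCDHAC2. Of the pseudogenes, PCDHA14, PCDHB18P, PCDHB19P, PCDHGB8P and PCDHGB9P were listed and PCDHB17P was not.

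**Figure D2:**
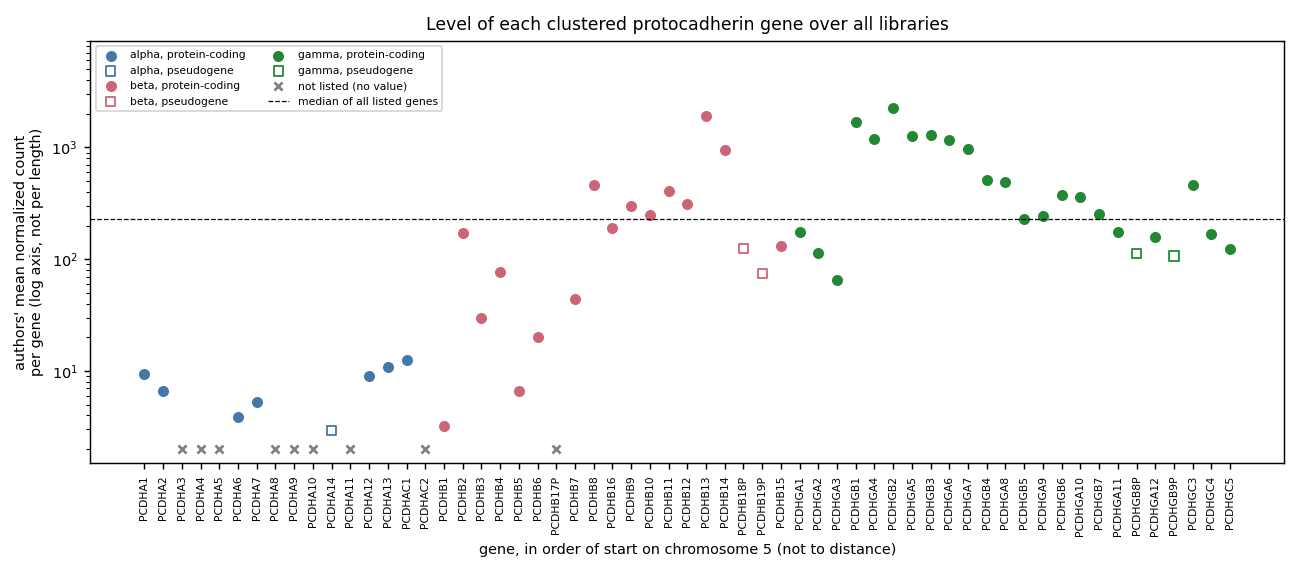
The authors' mean normalized count over all libraries for each family gene, in order of its start on chromosome 5 (log axis, not divided by length); filled circles are protein-coding genes, open squares pseudogenes, crosses genes without a row, and the dashed line the median listed gene (226.9). The alpha genes lie at or below 12.6, the beta genes run from 3.25 at PCDHB1 to 1915 at PCDHB13 without a steady order, and PCDHGB1 to PCDHGA7 form a block at 967 or more.

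Ranked by reads among all 20298 listed genes, the members covered much of the range. The median alpha gene exceeded 9.33% of all listed genes, the median beta gene 44.9% and the median gamma gene 53.8%. These medians cover listed genes only, 8 of 16 in alpha, 18 of 19 in beta and 24 of 24 in gamma. The alpha median thus leaves out genes that may have been below the authors' limit on reads. No alpha gene, 7 beta genes and 15 gamma genes lay above the median listed gene, whose value was 226.9. The lowest and highest percentiles were 0.0985% and 16.1% in alpha, 0.301% and 83.7% in beta and 35.4% and 85.9% in gamma. The gamma genes were thus never among the lowest listed genes, and no alpha percentile reached the lowest gamma one.

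**Figure D3:**
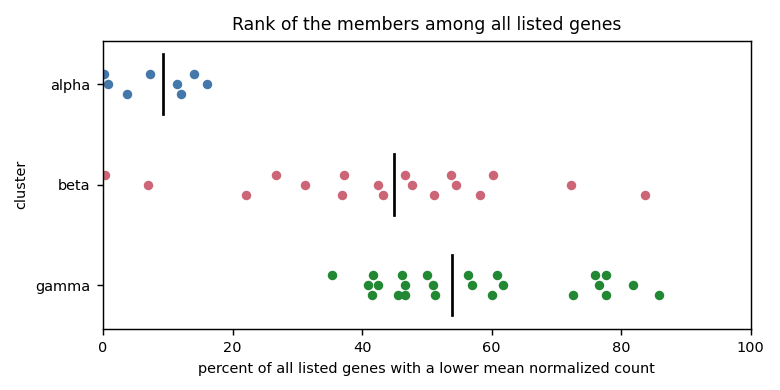
Percent of all listed genes with a lower mean normalized count, for each listed alpha, beta and gamma gene (points, with small vertical offsets) and the median of each cluster (black line). The alpha points end at 16.1%, the beta points run from 0.301% to 83.7%, and the gamma points start at 35.4%.

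In the alpha cluster, on chr5:140786140-141012347, every listed gene had 1 listed transcript and a low value. PCDHAC1, of the C type, was highest at a mean normalized count of 12.6, which was 20.8% of the cluster's sum. PCDHA13 had 10.7, PCDHA1 9.41 and PCDHA12 9.07, and these are variable exons that encode different extracellular parts. PCDHA2 had 6.67, PCDHA7 5.24 and PCDHA6 3.84. The pseudogene PCDHA14 was lowest at 2.95. The median of the cluster was 7.87 and 6 of the 8 genes were under 10. The values lie close to the authors' limit on reads, and there is no spread between libraries to rank them by.

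All 15 protein-coding alpha genes end at the same base in RefSeq, as do all 22 protein-coding gamma genes, because they share their last exons. Reads from these constant exons do not tell which variable exon they belong to, and RSEM divides such reads among the transcripts by estimate. The span of each such gene also covers the variable exons of the genes downstream of it. The RNA was nuclear and, in the paper, depleted of rRNA before library construction. Unspliced RNA from an upstream start could give reads in downstream genes, which was not tested. The values of single alpha and gamma genes are therefore uncertain, as are those of near-identical paralogs in all clusters. The 16 protein-coding beta genes each have an end of their own, with gene spans of 2750 to 7973 bases.

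The beta cluster, on chr5:141051374-141249365, was uneven. PCDHB13 had the highest mean normalized count, 1915, in its 1 listed transcript, which was 35.0% of the cluster's reads. PCDHB14 followed with 948, PCDHB8 with 466, PCDHB11 with 407 and PCDHB12 with 314. The lowest genes were PCDHB1 at 3.25, PCDHB5 at 6.60 and PCDHB6 at 20.2. Each of these genes encodes an adhesion protein of the same type, and the highest had 589.7 times the reads of the lowest. PCDHB1 lies close to the lowest listed transcript, at 2.72, and to the authors' limit on reads, so the size of this ratio is uncertain.

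Divided by the length of the gene in RefSeq, the beta levels kept these extremes. Per kb of gene span, PCDHB13 had a mean normalized count of 378, PCDHB14 215, PCDHB8 169, PCDHB11 98.0 and PCDHB12 81.6. PCDHB1 had 0.407, PCDHB5 1.94 and PCDHB6 6.24 per kb, and the median was 40.5 per kb. The highest gene held 28.8% of the summed level per kb. Gene span equals transcript length only where a gene has no intron, and PCDHB1 has the widest span of the cluster.

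The pseudogenes PCDHB18P and PCDHB19P had 38.7 and 16.1 per kb of span, from mean normalized counts of 124 and 74.4. They lay below PCDHB16 at 49.4 and PCDHB2 at 42.3 per kb, and above PCDHB7 at 11.7 and PCDHB3 at 8.82 per kb. Both values were in the range of the protein-coding genes of the cluster. A pseudogene keeps sequence close to its paralogs, so part of its reads could belong to them, and this was not tested.

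**Figure D4:**
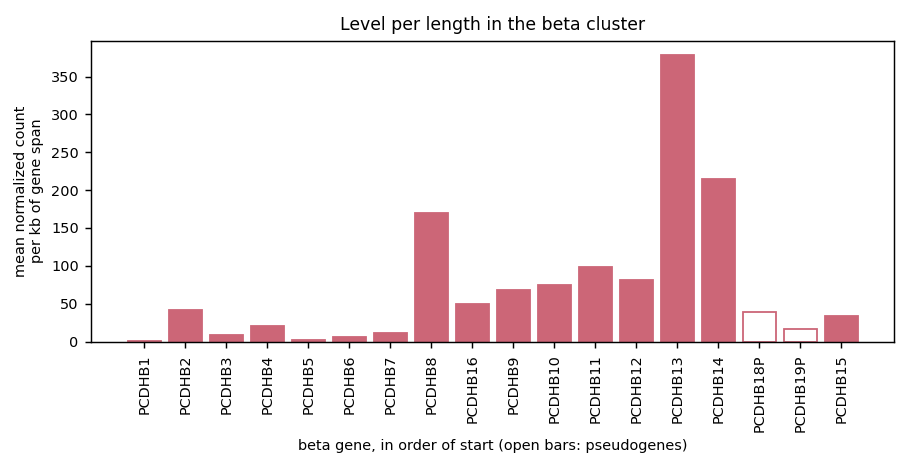
Mean normalized count per kb of RefSeq gene span for the 18 listed beta genes in order of start, with open bars for the pseudogenes. PCDHB13 at 378 and PCDHB14 at 215 stand next to each other, and PCDHB1 to PCDHB7 reach at most 42.3 per kb.

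High beta values lay next to each other along the chromosome. The 8 genes from PCDHB8 to PCDHB14, in the order PCDHB8, PCDHB16, PCDHB9, PCDHB10, PCDHB11, PCDHB12, PCDHB13 and PCDHB14, held 87.5% of the cluster's reads. Their mean normalized counts ran from 189.7 in PCDHB16 to 1915 in PCDHB13, with starts spread over 45553 bases. The 7 listed genes upstream of them, PCDHB1 to PCDHB7, ran from 3.25 to 173 and held 6.45%. The 3 downstream, PCDHB18P, PCDHB19P and PCDHB15, ran from 74.4 to 132 and held 6.04%. This stretch was delimited after its values were seen and has no test. The lowest gene inside it, PCDHB16, had 1.10 times the reads of the highest gene outside, PCDHB2, so its edge is not sharp.

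In the gamma cluster, on chr5:141330514-141512975, high values again lay side by side. The 7 adjacent genes from PCDHGB1 to PCDHGA7 had mean normalized counts of 967 to 2242 and held 70.4% of the cluster's reads. In order along the chromosome, PCDHGB1 had 1686, PCDHGA4 1200.25, PCDHGB2 2242, PCDHGA5 1278, PCDHGB3 1279.5, PCDHGA6 1163 and PCDHGA7 967. Gamma A and gamma B genes, the subfamilies defined by sequence, are interspersed in this stretch, and both were high.

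Outside the stretch the gamma values were lower. The 3 genes upstream, PCDHGA1, PCDHGA2 and PCDHGA3, had 175, 114 and 64.5 and together 2.54% of the cluster. The 14 genes downstream, from PCDHGB4 to PCDHGC5, ran from 107 to 511 and held 27.0%. The lowest gene of the stretch, PCDHGA7, had 1.89 times the reads of the highest outside, PCDHGB4, and the medians inside and outside were 1278 and 175, a ratio of 7.31. The 7 starts spread over 32643 bases. This stretch too was delimited after its values were seen, has no test, and rests on reads that were not divided by length.

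By subfamily, the 12 gamma A genes held 45.8% of the cluster's reads, the 7 protein-coding gamma B genes 47.2% and the 3 gamma C genes 5.41%. Gamma A genes ran from 64.5 to 1278 with a median of 303, and gamma B genes from 228 to 2242 with a median of 511. The subfamilies thus overlapped between 228 and 1278. Among the C-type genes, PCDHGC3 had 462, PCDHGC4 168 and PCDHGC5 123. The lowest gamma genes were PCDHGA3 at 64.5, the pseudogene PCDHGB9P at 107 and the pseudogene PCDHGB8P at 112. The share held by C-type genes was larger in alpha, 20.8%, but there it rested on PCDHAC1 alone and a value of 12.6.

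Gamma genes with and without their promoter word overlapped in reads. The 11 genes holding GCCGCTGT had mean normalized counts of 168 to 1686 with a median of 375, and the 9 without it had 64.5 to 2242 with a median of 1163. Of the 7 genes in the high stretch, PCDHGB1 and PCDHGA7 held the word and PCDHGA4, PCDHGB2, PCDHGA5, PCDHGB3 and PCDHGA6 did not. In the beta cluster the 13 genes with GTGGCGCT ran from 6.60 to 1915, and PCDHB1, the gene without it, had 3.25. In alpha, the 5 listed genes with ATGTCGCT ran from 3.84 to 9.41, and PCDHAC1, without it, had 12.6. The absence of these letters says only that they were not in this window.

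The number of listed transcripts differed between the clusters. All 8 alpha genes, 9 of 18 beta genes and 6 of 24 gamma genes had 1 listed transcript, as did 37.7% of all listed genes. In the 24 members with exactly 2, the most abundant transcript held a median of 80.8% of the gene's reads, close to 76.8% over all 2565 listed genes with 2. In 8 of the 27 members with more than 1 it held over 90%, a count that was not made over all listed genes. The 3 largest shares were in gamma genes. In PCDHGA4, PCDHGA4-202 held 99.1% with 1189 of the gene's mean normalized count. In PCDHGB2, PCDHGB2-202 held 98.1% with 2199, and in PCDHGB1, PCDHGB1-202 held 97.5% with 1644. Each of the 7 genes in the high gamma stretch had 2 listed transcript models, so 1 of them necessarily held most of the gene's reads. That model held from 72.0% in PCDHGB3 to 99.1% in PCDHGA4. These shares do not show that each gene was transcribed from its own promoter. The split among models of a gene is an estimate by RSEM.

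The exceptions were spread over the clusters. PCDHB12 had 3 listed transcripts, all protein-coding, with 41.4%, 30.8% and 27.8% of its reads. PCDHGA11 and PCDHGC3 also had 3 each, with 64.5% and 86.6% in the most abundant. In PCDHB4 the most abundant model, PCDHB4-202, was a processed transcript without a coding sequence and held 86.4%. Protein-coding models were 88.8% of the 80 member transcripts, against 52.3% of all listed transcripts. None was annotated with a retained intron or for nonsense-mediated decay, classes that made up 15.4% and 8.65% of all listed transcripts. These classes are set by the annotation and not by the reads, and a gene without introns cannot have a retained one.

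**Figure D5:**
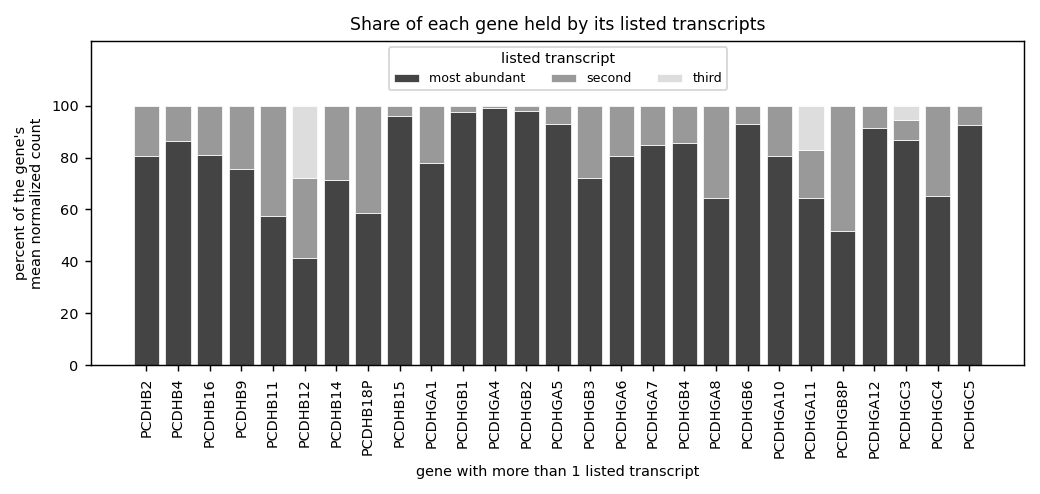
Percent of each gene's mean normalized count held by its listed transcripts, for the 27 members with more than 1, in order along the chromosome. The most abundant transcript (dark) fills 99.1% of PCDHGA4 and 41.4% of PCDHB12, where 3 transcripts share the reads.

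The other genes of the pathway were described by their reads alone. Of 12 non-clustered protocadherins, adhesion proteins encoded by genes outside the 3 clusters, 8 were listed. PCDH7 had a mean normalized count of 2290.4 and PCDH1 815, PCDH9 had 242, and PCDH10, PCDH20, PCDH18, PCDH19 and PCDH12 ran from 53.0 down to 7.14. Their median percentile among all listed genes was 32.0%, between those of the alpha and beta clusters. PCDH7 and PCDHGB2 had similar reads, at the 86.2 and 85.9 percentiles.

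All 11 regulators of promoter choice and silencing at the clusters were listed, from 745 for DNMT3B, a DNA methyltransferase, to 19476 for SMC1A, a cohesin subunit. CTCF, which binds at the promoters and enhancers, had 3915, the cohesin subunit RAD21 5223 and its unloader WAPL 5011. The cohesin loader NIPBL had 6222 and the cohesin subunits SMC3, STAG2 and STAG1 had 2078, 2287 and 1254. SMCHD1, a chromatin silencing protein, had 1102 and SETDB1, a histone H3 lysine methyltransferase, 2134. The median of these regulators exceeded 86.2% of listed genes. Among proteins that cut or act below protocadherins, values were 2043 for the sheddase ADAM10, 4133 for the focal adhesion kinase PTK2, 244 for the related kinase PTK2B and 12733 for the kinase WNK1.

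YTHDC1, the tagged protein, had a mean normalized count of 55488 and exceeded 99.8% of listed genes, and this sum includes any reads from the transgene that map to it. The label of the cell line was checked against its markers. VIM at 80785, EGFR at 22483 and CD44 at 14306 were high, ESR1 and PGR were not listed, and CDH1 was at 10.0. EPCAM, also on the list of low or absent genes, was at 78.3, above 37.5% of listed genes. SPARC at 11.4 and KRT8 at 31132 went against the list used. Of the neuronal markers, RBFOX3 and SNAP25 were not listed, SYT1 had 87.2 and MAP2 71.6, and TUBB3, which is not restricted to neurons in cell lines, had 3952.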

How the data were processed

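RIP-seq of Flag-tagged YTHDC1 was analysed in 4 libraries of MDA-MB-231 cells, 2 of IP and 2 of input. The authors aligned the reads with STAR 2.7.2b, estimated transcript counts with RSEM 1.2.31, dropped transcripts that did not reach 5 reads in 50% or more of the samples and ran RUVSeq and DESeq2; the labels also name FastQC 0.11.5. The annotation was GENCODE on GRCh38. The strand setting of the counting is not given in the sources used here. The deposited table gives, per transcript, the mean normalized count over all libraries, a signal without a value per library, so depth per library is unknown and leaves no counting error to state. Its 4 columns of the IP against input comparison (log2 fold change, its standard error, the p-value and the adjusted p-value) are the authors' own results and were not used. IP was therefore not compared with input and no test was run.

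Transcript values were summed per gene with pandas 2.3.3 in Python 3.11.15, and the sums were checked on simulated tables. Beta levels were divided by RefSeq gene span. Transcript lengths, which had been planned for, were not used, so alpha and gamma values stayed undivided. Named genes were the 5 highest and 3 lowest of each cluster, all C-type genes, the listed pseudogenes and the genes with most transcripts; the neighbours of these along a stretch were named after their values were seen. A further gene fixed for the lists was left out and is not reported here. Members and lists were chosen with earlier results of these data known. Alternatives were a minimum level of 10 or 100 per transcript, protein-coding transcripts alone, the most abundant transcript of each gene, levels with and without length, other word lengths, and, added after seeing the data, words per cluster and sums without the highest gene.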

Additional observations from a re-analysis of the deposited data

How the results depend on the processing

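No paired analysis was possible because the table holds 1 mean over all libraries and no value per library, and for the same reason no library could be left out. The order of the cluster sums, gamma over beta over alpha, held under each alternative run. With protein-coding transcripts alone the sums were 57.6 in alpha, 5130 in beta and 13715 in gamma, and the median genes 9.07 in alpha, 45.9 per kb in beta and 369 in gamma. A minimum mean normalized count of 10, set on each transcript before summing, left 2 alpha genes and sums of 23.3 in alpha and 5451 in beta, and a minimum of 100 per transcript left 0 alpha and 10 beta genes. Without the highest gene the sums were 47.9, 3551 and 11692. Not divided by length, the median beta gene was 152 and PCDHB13 held 35.0% of the cluster. With the most abundant transcript of each gene, the medians were 32.8 per kb in beta and 272 in gamma, the highest gene held 34.1% of beta and 17.8% of gamma, and C-type genes held 5.04% of gamma. The median percentiles were then 10.1, 48.7 and 59.8 for alpha, beta and gamma, and 3.69, 27.1 and 38.7 among genes with a protein-coding transcript alone. The most shared 6-letter word, AAAGAA, was in 26 of 40 promoters and in 22.1% of all promoters, and the most shared 10-letter word was in 12. The remaining alternatives moved their values by less than the third significant digit or, for counts, within 1.5 times.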
